A study of Homo sapiens with 2 samples.

Results

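The genes described here encode HLA class I molecules and the proteins that load them with peptide, measured in IGR37 and IGR39, a metastatic and a primary human melanoma cell line. The group holds 9 of the 19775 genes named on the array: the heavy chains HLA-B, HLA-C, HLA-E and HLA-F, the light chain B2M, the peptide transporter subunits TAP1 and TAP2, and the peptidases ERAP1 and ERAP2. All 31 probe sets whose platform annotation gives a member's symbol were taken, whatever their values. None of the probe sets with several symbols named a member. IGR37 comes from a lymph node metastasis and IGR39 from a cutaneous primary tumour described as achromic, and each was grown in DMEM with 10% fetal bovine serum plus antibiotics and antimycotics, with no treatment named in the labels. Each line was measured on 1 Affymetrix U133 Plus 2.0 array, so no value has a replicate and nothing was tested. With a single line of each origin, a difference between the lines cannot be told apart from one between primary and metastatic cells.

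Class I molecules present peptides from inside the cell to cytotoxic T cells. Proteins are cut by the proteasome, and the peptides are pumped into the endoplasmic reticulum by a transporter built from the TAP1 and TAP2 proteins. There, the aminopeptidases ERAP1 and ERAP2 trim them, and chaperones fit them into the groove of a heavy chain paired with beta-2-microglobulin, the product of B2M. HLA-B and HLA-C are classical, highly variable heavy chains, while HLA-E and HLA-F vary little and are known as ligands of receptors on natural killer cells. Many of these genes respond to interferon through interferon-responsive promoter elements, and melanoma cells are known to lose surface class I by several routes.

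The promoters of these genes are shown because an element read by interferon regulatory factors recurs in them. RefSeq's promoter table of the build GRCh38.p14, with 250 bases before and 50 after each annotated start, held 11 windows for 8 of the 9 genes; HLA-E had no entry. The element searched on both strands was GAAA, any 2 bases and GAAA, or the shorter form GAANNGAAA, and the forms may overlap. At least 1 window of each of these 8 genes held it, in 9 of the 11 windows. Over the whole table it was found in 10.6% of 35116 windows and in 12.8% of 27305 genes. A match is a description of letters and not a measured binding site. In the pieces of 40 bases below, written 5′ to 3′ on each gene's own strand, the matched bases are in capitals.
HLA-B (chr6:31357311-31357350, minus strand): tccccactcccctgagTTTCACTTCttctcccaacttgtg
HLA-C (chr6:31272220-31272259, minus strand): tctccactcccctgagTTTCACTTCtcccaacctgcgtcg
HLA-F (chr6:29723263-29723302, plus strand): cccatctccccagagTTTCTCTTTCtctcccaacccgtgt
B2M (chr15:44711358-44711397, plus strand): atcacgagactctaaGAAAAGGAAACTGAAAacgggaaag
TAP1 (chr6:32853814-32853853, minus strand): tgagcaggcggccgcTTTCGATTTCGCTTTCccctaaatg
TAP2 (chr6:32838779-32838818, minus strand): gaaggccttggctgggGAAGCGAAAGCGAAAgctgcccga
ERAP1 (chr5:96807919-96807958, minus strand): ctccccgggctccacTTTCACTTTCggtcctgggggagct
ERAP2 (chr5:96876449-96876488, plus strand): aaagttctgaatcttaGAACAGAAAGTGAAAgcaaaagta

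In HLA-B and HLA-C the element began 155 and 151 bases before the start, and in HLA-F 156 bases before it. The matched letters were the same in HLA-B and HLA-C, and HLA-F held the longer form. B2M and TAP1 each held a pair of overlapping matches, and the first of them began 144 bases before the start in B2M and 134 before it in TAP1. The matches of TAP2 and ERAP2 lay closer to the start, from 63 bases before it in TAP2 and from 35 before it in ERAP2. In ERAP1 the match shown began 2 bases past the first base of the annotated start. ERAP1, ERAP2 and TAP1 have 2 windows each. The other ERAP1 window held the shorter form, and the other windows of ERAP2 and TAP1 held no match.

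The whole windows of HLA-B, HLA-F and ERAP2 are given next. These genes had unlike differences, described below: HLA-B and ERAP2 were far lower in IGR37 and HLA-F was nearly equal. Capitals mark the same element.
HLA-B (chr6:31357130-31357429, minus strand): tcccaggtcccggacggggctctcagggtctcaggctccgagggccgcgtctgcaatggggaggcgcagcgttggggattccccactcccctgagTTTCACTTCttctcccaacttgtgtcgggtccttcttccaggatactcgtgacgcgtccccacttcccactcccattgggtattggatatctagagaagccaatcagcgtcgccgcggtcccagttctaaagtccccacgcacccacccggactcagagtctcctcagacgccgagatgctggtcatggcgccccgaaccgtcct
HLA-F (chr6:29723184-29723483, plus strand): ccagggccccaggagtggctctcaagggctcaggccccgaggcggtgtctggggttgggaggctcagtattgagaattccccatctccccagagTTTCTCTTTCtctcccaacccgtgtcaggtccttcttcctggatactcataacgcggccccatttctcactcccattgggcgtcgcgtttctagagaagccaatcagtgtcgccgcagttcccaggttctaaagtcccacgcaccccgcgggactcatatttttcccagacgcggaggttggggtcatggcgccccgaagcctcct
ERAP2 (chr5:96876250-96876549, plus strand): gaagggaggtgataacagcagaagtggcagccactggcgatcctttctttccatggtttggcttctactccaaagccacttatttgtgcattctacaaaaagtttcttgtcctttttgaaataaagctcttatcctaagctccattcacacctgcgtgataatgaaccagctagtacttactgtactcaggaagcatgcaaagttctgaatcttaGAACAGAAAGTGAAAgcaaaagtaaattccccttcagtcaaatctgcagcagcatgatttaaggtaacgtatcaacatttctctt

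HLA-B and HLA-C shared 88.5% of the aligned columns of their windows, against 79.2% for HLA-B and HLA-F. HLA-B also held a match to GGNNTTNCC, a loose form of the NF-kB site, 176 bases before the start, which HLA-C and HLA-F lacked. That motif was also matched in B2M, TAP1 and ERAP1, and in 17.1% of all windows. The letters TGACG, the core of a cyclic AMP response element, stood 106 bases before the start in HLA-B and 105 before it in HLA-C, while HLA-F had no match. These letters were also matched in B2M and TAP2, and in 24.6% of all windows. Neither motif was matched in ERAP2. CCAAT, the box bound by the NFY factors, was matched in all 3 heavy chain windows. It stood at 3 places in HLA-B, 4 in HLA-C and 2 in HLA-F. CCAAT was also matched in B2M, TAP1 and ERAP1, and in 34.6% of all windows. The element took unlike forms: HLA-B and HLA-C held only the shorter one, HLA-F, B2M and TAP1 the longer one, and TAP2, ERAP1 and ERAP2 both over their windows. Whether it bears on the levels was not tested. The reference sequence does not show the alleles that these lines carry.

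Levels are given on the log2 scale as RMA makes them for a probe set, so a difference of 1 is 2-fold. Differences are IGR37 minus IGR39, and a gene was counted where its brightest probe set reached log2 6 in the brighter line. Hybridisation spike-ins, 18 probe sets, differed by -0.14 to 0.21, and 24 poly-A spike-in probe sets by -0.47 to 0.68. The spread of differences among probe sets of 1 gene had a pooled SD of 0.40 over 3178 genes. These values cover the array and its probes and say nothing of the spread between cultures. The melanocyte markers MLANA, PMEL, TYR, SOX10 and MITF were at 10.65 to 12.83 in IGR37 and at 3.33 to 7.57 in IGR39, with only MITF at or above log2 6 in IGR39. Their part in the results below was not tested. None of 12 lymphocyte and 6 macrophage or dendritic cell markers reached log2 6 in either line, and the highest was at 5.14. Of 4 measured keratinocyte markers, only KRT10 reached log2 6, at 9.08 in IGR37 and 9.13 in IGR39. Among 11 markers of fibroblasts and endothelium, 3 did: FAP at 6.83 in IGR37 and 8.85 in IGR39, COL1A2 at 3.84 in IGR37 and 6.27 in IGR39, and LUM at 6.26 in IGR37 and 3.41 in IGR39. Over all 11, most of them under log2 6 in both lines, the log2 levels summed to 50.2 in IGR37 and 52.2 in IGR39. As FAP and COL1A2 were lower in IGR37 and LUM higher, the sums do not show the markers to be alike.

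Of the 9 genes, 8 reached the minimum, and 3 of these 8 were at least 2-fold lower in IGR37: ERAP2, HLA-B and HLA-C. Over all 8501 genes at this level, 9.50% were at least 2-fold lower. Without _x_at probe sets, the count was 1 of 5, ERAP2, against 9.66% of genes, since HLA-B and HLA-C have no others. With the mean over probe sets, ERAP2 was under the minimum and the count was 2 of 6, against 8.56%. None of the members was at least 2-fold higher, against 11.4% of all genes. The difference was below 0 in 7 of the 8, against 45.4% of all genes, and their median was -0.40, against 0.07 over all genes. Among the members' probe sets, 19 of 31 reached the minimum, and 8 of the 19 were at least 2-fold lower in IGR37, against 9.72% of all named probe sets at that level. Probe sets of a gene are not replicates of the lines. In RNA from whole cultures, fewer cells with a transcript and less of it in each cell cannot be told apart.

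**Figure D1:**
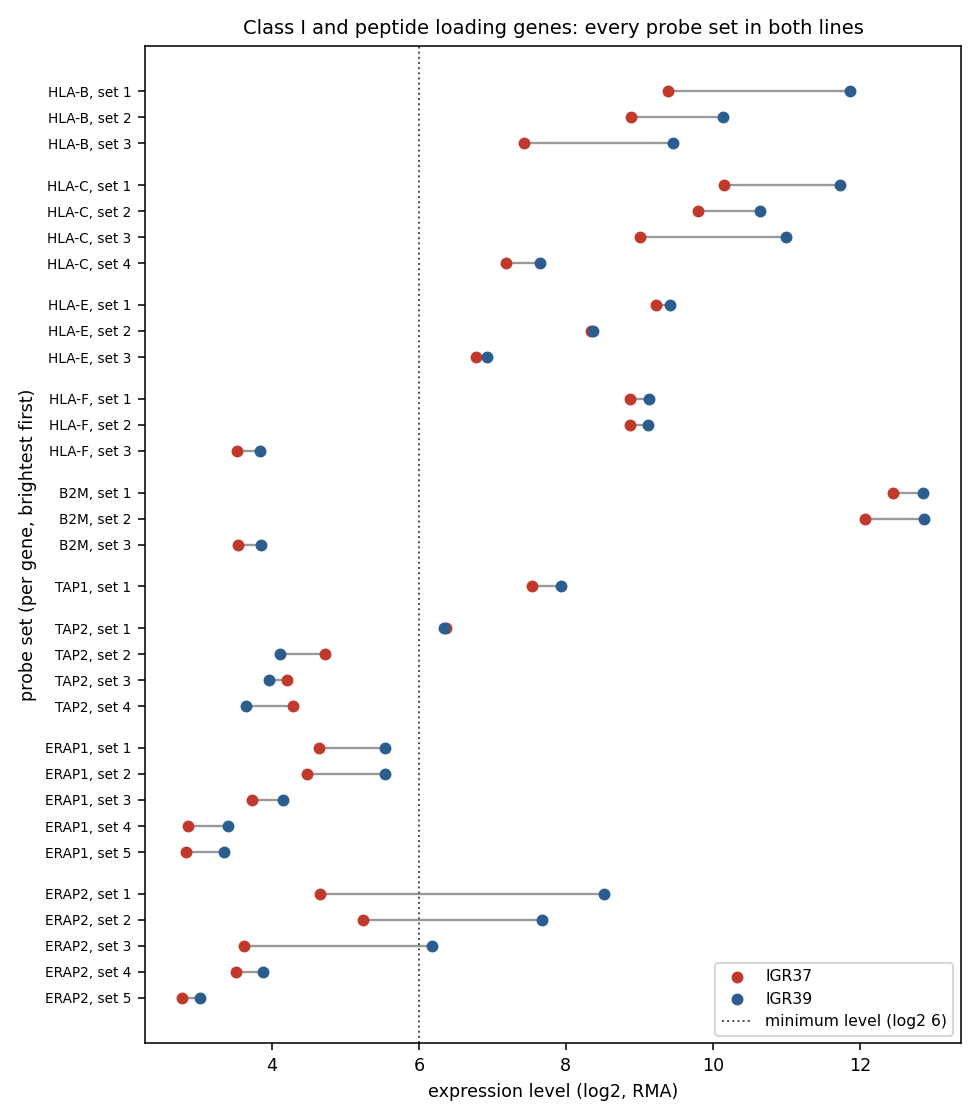
Log2 expression level of each of the 31 probe sets in IGR37 (red) and IGR39 (blue), each from 1 array, with a grey line joining the values and a dotted line at log2 6. The widest gaps are those of ERAP2, HLA-B and HLA-C, while HLA-E, HLA-F and the brightest TAP2 probe set nearly coincide, and all 5 ERAP1 probe sets lie below the dotted line.

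HLA-B, a classical heavy chain, was lower in IGR37 on each of its 3 probe sets. The brightest stood at 9.39 in IGR37 and 11.86 in IGR39, a difference of -2.47, with a level 5.53 times as high in IGR39. The next was at 8.89 in IGR37 and 10.13 in IGR39, a difference of -1.24. The last was at 7.42 in IGR37 and 9.45 in IGR39, a difference of -2.03. All of these levels lay above log2 6 in both lines. All 3 probe sets end in _x_at, the suffix taken up below, and how much of their signal in IGR37 comes from HLA-B was not tested. The SD of the 3 differences was 0.62. Of all 8501 genes, 253 (2.98%) had a difference as low as that of the brightest HLA-B probe set.

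HLA-C, the neighbour of HLA-B on chromosome 6, was lower in IGR37 on all 4 of its probe sets, but by unequal amounts. The brightest was at 10.15 in IGR37 and 11.72 in IGR39, a difference of -1.58. Another was at 9.01 in IGR37 and 11.00 in IGR39, a difference of -1.98. The remaining probe sets differed by less than 2-fold, at 9.80 in IGR37 and 10.64 in IGR39 and at 7.18 in IGR37 and 7.64 in IGR39. Their differences were -0.84 and -0.46. The SD over the 4 probe sets was 0.69, and the ranges of HLA-B and HLA-C overlapped, so the data do not order these genes by the size of their difference.

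HLA-E and HLA-F, the heavy chains of low variability, were nearly equal in the lines. The brightest HLA-E probe set was at 9.22 in IGR37 and 9.42 in IGR39, a difference of -0.20. Its others stood at 8.35 in IGR37 and 8.37 in IGR39 and at 6.77 in IGR37 and 6.93 in IGR39. HLA-F was at 8.88 in IGR37 and 9.13 in IGR39 on its brightest probe set, a difference of -0.25, and at 8.87 in IGR37 and 9.11 in IGR39 on another. Its last probe set was near background in both, at 3.52 in IGR37 and 3.84 in IGR39. These differences lay within the range of the poly-A spike-ins. The 7 probe sets of HLA-B and HLA-C differed by -2.47 to -0.46. The 5 of HLA-E and HLA-F at the minimum differed by -0.25 to -0.02. These ranges did not overlap, but their nearest ends, -0.46 and -0.25, lay closer together than the pooled SD of 0.40. The -0.46 of HLA-C was also within the range of the poly-A spike-ins. Probe sets of a gene are not replicates, and whether the pairs separate was not tested.

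Class I heavy chains are near-identical over long stretches, and 11 of the 13 probe sets of these genes end in _x_at, the suffix for probes that can also bind other transcripts. HLA-B and HLA-C had no other kind of probe set. Signal may therefore be shared among heavy chains, and values for single heavy chains are uncertain to that extent. The HLA-E probe set without that suffix had a difference of -0.15, close to the others of its gene. For HLA-G, a heavy chain outside the group, 4 probe sets of the same kind differed by -0.10 to 0.25, and HLA-J, a class I pseudogene, was at 8.78 in IGR37 and 8.67 in IGR39. Probe sets of this kind thus ran from -2.47 to 0.25 between the lines. How far they share signal was not tested.

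B2M, the light chain of class I molecules, was abundant in both lines. One probe set stood at 12.45 in IGR37 and 12.86 in IGR39, a difference of -0.41. The other bright one was at 12.07 in IGR37 and 12.87 in IGR39, a difference of -0.80. Neither reached 2-fold. The dim remaining one was at 3.54 in IGR37 and 3.85 in IGR39. B2M was lower in IGR37 on all 3 probe sets, and 22.7% of all genes had a difference as low as that of the brightest.

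The transporter subunits differed little. TAP1 has 1 probe set, which was at 7.54 in IGR37 and 7.93 in IGR39, a difference of -0.39. Of all genes, 23.7% had a difference as low as that. TAP2 was at 6.36 in IGR37 and 6.34 in IGR39 on its brightest probe set, a difference of 0.02. The 3 dimmer TAP2 probe sets lay under log2 6 in both lines, at 4.20 to 4.72 in IGR37 and at 3.64 to 4.11 in IGR39, with differences of 0.25 to 0.65. TAP2 was the only member whose probe sets were all at or above 0 in difference, but the difference of its brightest was -0.16 after centring on housekeeping genes and -0.02 after removing a lowess trend.

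ERAP2, an aminopeptidase that trims peptides in the endoplasmic reticulum, had the largest difference of the 8 counted genes. Its brightest probe set was at 4.65 in IGR37 and 8.52 in IGR39, a difference of -3.87, with a level 14.6 times as high in IGR39. The next was at 5.24 in IGR37 and 7.68 in IGR39, a difference of -2.44. A dimmer one was at 3.61 in IGR37 and 6.18 in IGR39, a difference of -2.57. All 3 lay above log2 6 in IGR39 and below it in IGR37, so the size of the difference rests on a level near background. None of the 5 ERAP2 probe sets ends in _x_at or _s_at. The others were dim in both lines, at 3.51 in IGR37 and 3.88 in IGR39 and at 2.78 in IGR37 and 3.02 in IGR39. Of all genes, 94 (1.11%) had a difference as low as that of the brightest.

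ERAP1, the related aminopeptidase, did not reach log2 6 on any of its 5 probe sets and was not counted. Its brightest was at 4.64 in IGR37 and 5.53 in IGR39, and another was at 4.47 in IGR37 and 5.54 in IGR39. All 5 were lower in IGR37, with differences of -1.07 to -0.42. At these levels RMA compresses differences, and the values do not show whether the gene is expressed.

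**Figure D2:**
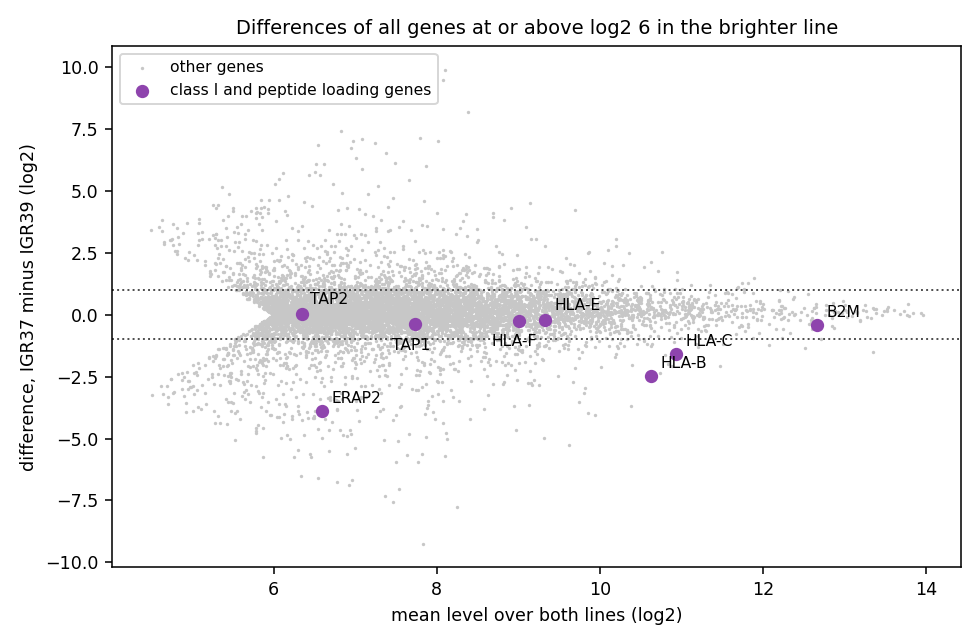
Difference in log2 level (IGR37 minus IGR39) against the mean log2 level over both lines for the 8501 genes that reach log2 6 in the brighter line, grey, with the 8 counted class I and peptide loading genes in purple; dotted lines mark 2-fold. ERAP2, HLA-B and HLA-C lie below the lower line, and the 5 others lie between the lines, with HLA-B and HLA-C at mean levels above 10.

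Other genes of the pathway were counted in lists. Of 9 chaperones and quality control genes of peptide loading, 1 was at least 2-fold lower in IGR37, none higher, and 8 lay within 2-fold, with a median of -0.20. Over all genes the shares were 9.50% lower and 11.4% higher, for this and the following lists. The one was TAPBPL, a peptide editor related to tapasin, at 4.43 in IGR37 and 6.44 in IGR39 and at 4.52 in IGR37 and 6.28 in IGR39 on its other probe set. Tapasin itself, encoded by TAPBP, was at 8.02 in IGR37 and 8.99 in IGR39, a difference of -0.97; it was named after its value was seen. It passed 2-fold, at -1.15 after centring on housekeeping genes and -1.07 after removing a lowess trend, which made the count 2. With the mean over probe sets, TAPBP differed by only -0.46. At a minimum of log2 7 the count was 0, since TAPBPL was then under it. The lectin chaperones differed little. CANX was at 12.21 in IGR37 and 12.41 in IGR39, and CALR at 10.52 in IGR37 and 10.82 in IGR39.

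Of 9 measured genes of peptide supply by the proteasome, 2 were at least 2-fold lower in IGR37, 1 at least 2-fold higher and 6 within 2-fold, with a median of -0.22. PSMB9, an interferon-inducible catalytic subunit of the immunoproteasome, was at 7.25 in IGR37 and 8.46 in IGR39. PSME1, a subunit of the proteasome activator, was at 8.30 in IGR37 and 9.61 in IGR39. The assembly factor POMP was higher, at 12.28 in IGR37 and 11.26 in IGR39, a difference of 1.02. That difference was within 2-fold after centring on housekeeping genes, after removing a lowess trend, with the mean over probe sets and without _x_at and _s_at probe sets. Other inducible subunits were closer, with PSMB8 at 7.80 in IGR37 and 8.04 in IGR39 and PSMB10 at 7.50 in IGR37 and 7.44 in IGR39, both named after their values were seen. All 8 measured peptidases of the cytosol that can trim or destroy peptides lay within 2-fold, with a median of 0.08.

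Among factors of class I transcription and interferon signalling, 17 of 23 measured genes reached the minimum. Of these, 4 were at least 2-fold lower in IGR37, 2 at least 2-fold higher and 11 within 2-fold. Their median was 0.31, against 0.07 over all genes. After centring on housekeeping genes it was 0.13, against -0.12 over all genes. With no minimum the list median was 0.008, against 0.003 over all genes. Without _x_at and _s_at probe sets it was -0.09, against 0.06 over all genes. At a minimum of log2 7 only 2 were lower, IRF1 and IRF9. The count of higher genes was 1 after centring on housekeeping genes and with the mean over probe sets, and 0 without _x_at and _s_at probe sets. IRF1, an interferon-induced transcription factor, was at 5.03 in IGR37 and 8.36 in IGR39, a difference of -3.33, and at 4.38 in IGR37 and 7.27 in IGR39 on its other probe set. IRF9, the DNA-binding part of the complex that type I interferon activates, was at 5.26 in IGR37 and 7.30 in IGR39. NLRC5, the class I transactivator, was at 4.42 in IGR37 and 6.08 in IGR39, only just above the minimum in the brighter line. NFYB was at 5.48 in IGR37 and 6.65 in IGR39. Its other probe sets lay under log2 6 in both lines, with differences of -1.09 to -0.11. With the mean over probe sets NFYB was under the minimum, and 3 genes of the list were counted as lower. The interferon gamma receptor gene IFNGR1 was higher, at 8.58 in IGR37 and 6.92 in IGR39, and so was PCGF1, a Polycomb gene, at 7.53 in IGR37 and 6.37 in IGR39. The other PCGF1 probe set was within 2-fold, at 7.09 in IGR37 and 6.62 in IGR39, and centring on housekeeping genes brought the first to 0.97. The kinase gene JAK1 was at 8.83 in IGR37 and 8.92 in IGR39.

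Of 14 measured relatives of the class I heavy chains, 3 reached the minimum, and MICB, a stress-induced ligand of natural killer cell receptors, was at least 2-fold lower, at 5.42 in IGR37 and 6.98 in IGR39. The other two were HLA-G and HLA-J. The list of class I traffic and turnover had 2 of 8 genes at least 2-fold lower in IGR37 and none higher. MARCHF4, a membrane ubiquitin ligase that can act on class I molecules, was at 4.35 in IGR37 and 6.41 in IGR39. HERC6, an interferon-stimulated ubiquitin ligase gene, was at 4.32 in IGR37 and 6.18 in IGR39. At a minimum of log2 7 MICB, MARCHF4 and HERC6 were no longer counted, and HERC6 was not with the mean over probe sets. Of 23 housekeeping genes, 20 lay within 2-fold, 3 were higher in IGR37 and none was lower, with a median of 0.19.

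**Figure D3:**
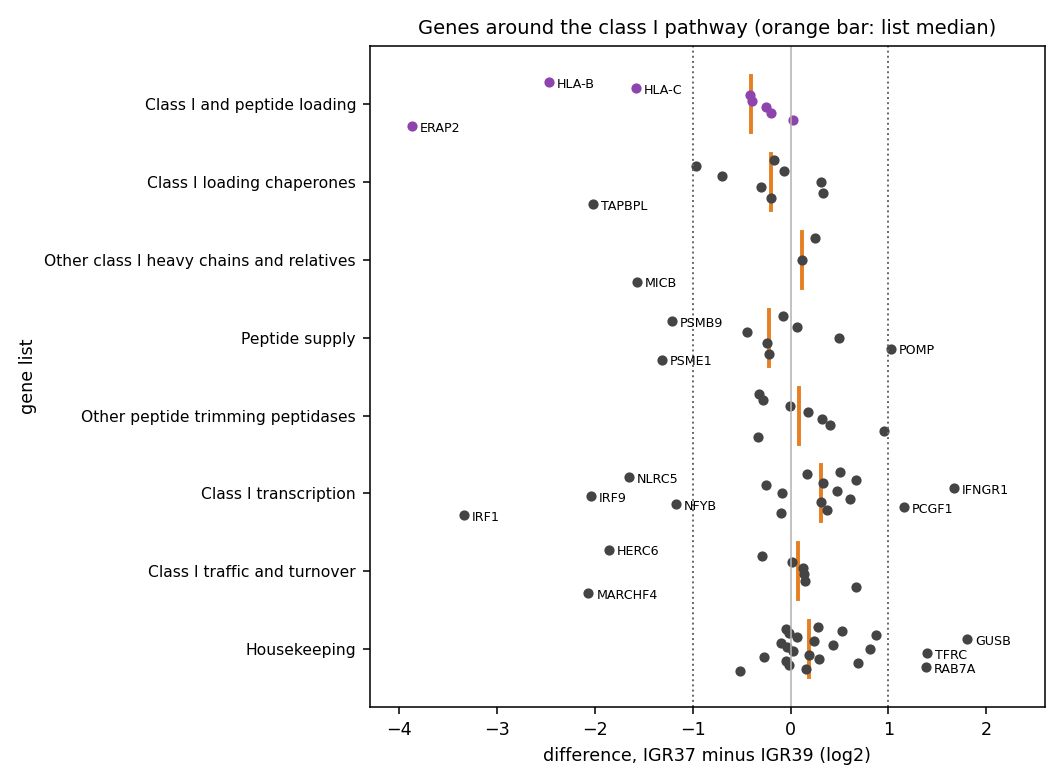
Difference in log2 level (IGR37 minus IGR39) for each gene that reaches log2 6 in the brighter line, by gene list, with purple points for the 8 class I and peptide loading genes; orange bars are list medians, dotted lines mark 2-fold, and height within a list has no meaning. Most genes of every list lie within 2-fold, and the lowest points are ERAP2 at -3.87 and IRF1 at -3.33.

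The members lie in a few places in the genome, and their neighbours were looked up in RefSeq's gene order among genes with a probe set named here. ERAP1 and ERAP2 stand next to each other on chromosome 5 in that order. Of the 4 neighbours on each side, 5 reached the minimum and 3 of these were at least 2-fold lower in IGR37. ELL2, an elongation factor gene, was at 4.53 in IGR37 and 8.73 in IGR39, a difference of -4.20. CAST, which encodes the calpain inhibitor and lies directly beside ERAP1, was at 8.70 in IGR37 and 10.04 in IGR39, a difference of -1.34. RGMB, a co-receptor of bone morphogenetic protein signalling, was at 5.57 in IGR37 and 7.54 in IGR39. With 20 neighbours on each side, 7 of 19 genes at the minimum were at least 2-fold lower and none was higher, against 9.50% and 11.4% of all genes, with a median of -0.51.

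Around HLA-B and HLA-C on chromosome 6 no counted neighbour among the nearest differed by 2-fold. With 4 genes on each side, the 2 at the minimum were CCHCR1, at 6.49 in IGR37 and 5.98 in IGR39, and TCF19, at 6.93 in IGR37 and 7.43 in IGR39. With 20 on each side, 2 of 16 were lower by 2-fold or more and 1 was higher, against 9.50% and 11.4% of all genes. Their median was -0.09, against 0.07 over all genes. TAP1 and TAP2 lie further along the same chromosome with the immunoproteasome genes PSMB8 and PSMB9. In that order, TAP2 differed by 0.02, PSMB8 by -0.24, TAP1 by -0.39 and PSMB9 by -1.21, so only PSMB9 of these 4 passed 2-fold. PSMB8-AS1, between PSMB8 and TAP1, was under log2 6 in both lines. The HLA class II genes beside them were under log2 6 in both lines. Around B2M on chromosome 15, none of the 4 neighbours at the minimum differed by 2-fold.

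**Figure D4:**
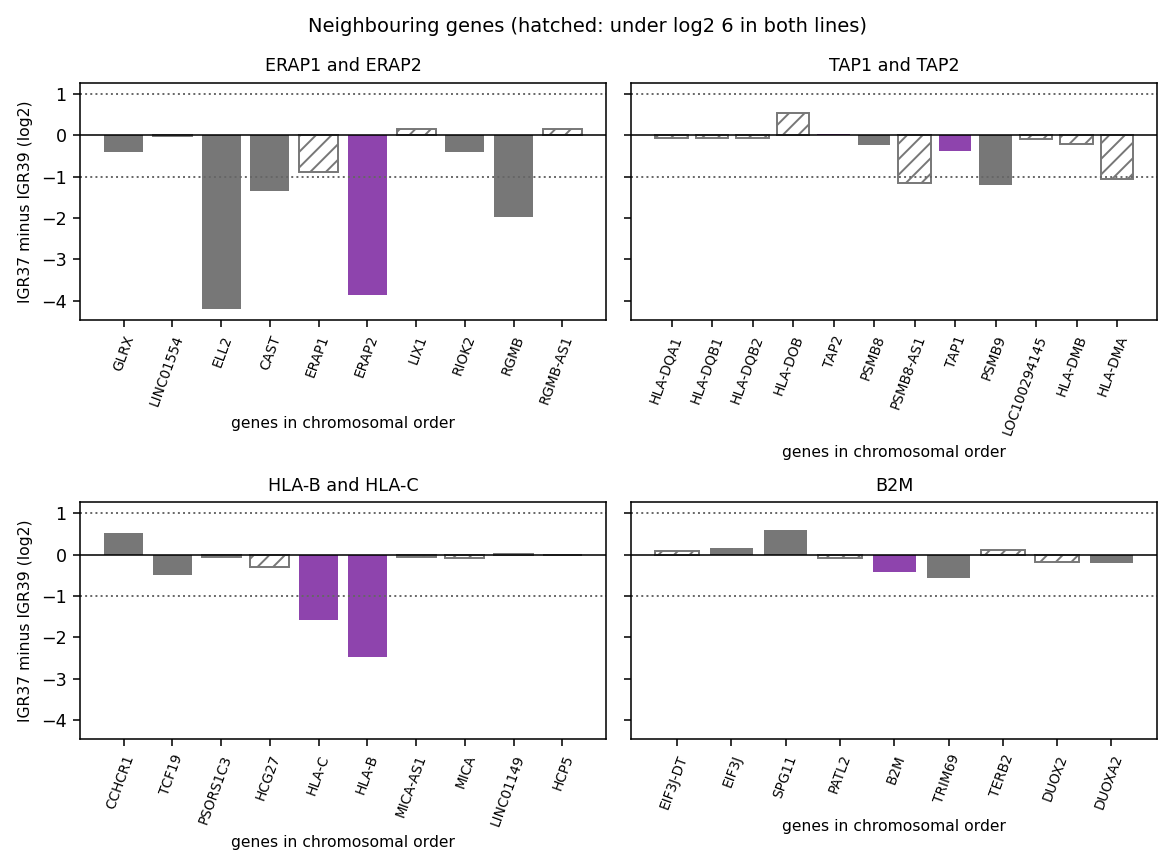
Difference in log2 level (IGR37 minus IGR39) of the class I and peptide loading genes (purple) and the 4 genes on each side of them, in chromosomal order, with bars hatched where a gene was under log2 6 in both lines and dotted lines at 2-fold. On chromosome 5, ELL2, CAST, ERAP2 and RGMB all lie below -1, while CCHCR1 at 0.51 and TCF19 at -0.49, the counted genes near HLA-C and HLA-B, lie within 2-fold and the other genes flanking them are hatched.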

How the data were processed

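Total RNA was extracted with TRIzol, labelled with biotin and hybridised by the standard Affymetrix procedure, per the labels' protocols. The authors deposited log2 values for each probe set. Per the submitters' processing notes, RMA and the affy package made them. Neither their versions nor which arrays were normalised together is given in the sources used here. RMA makes the arrays' distributions alike, so an overall difference in brightness is removed, and low levels are compressed. The number of arrays limits the precision.

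Gene names are those of the platform annotation, brought up to date by gene identifier against RefSeq (GRCh38.p14). A gene's value is that of its brightest probe set, by the mean of the arrays. The minimum was log2 6 in the brighter line and the limit 2-fold. Named were all members, list genes at least 2-fold different and up to 4 more per list by mean level. Neighbours and probe sets of relatives were added after values were seen. The members, lists and alternatives were chosen with earlier results of these data known. Alternatives were minima of 5, 7 or none, the mean over probe sets, leaving out _x_at or _s_at probe sets, 3 other scalings and limits of 1.5-fold and 3-fold. The counting was tested on simulated data. Some list genes were not analysed here. Python 3.11.15, numpy 2.4.6, pandas 2.3.3, statsmodels 0.14.6, Biopython 1.88 and matplotlib 3.10.9 were used.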

Additional observations from a re-analysis of the deposited data

How the results depend on the processing

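The count of 3 members at least 2-fold lower in IGR37 held under minima of 5, 7 or none, under the 3 other scalings and at a limit of 1.5-fold. It was 2 at a limit of 3-fold, without HLA-C. Averaging the probe sets of a gene gave 2, since the mean of ERAP2 then missed the minimum, and HLA-B differed by -1.91 there. It was 1 without _x_at probe sets and 1 without _x_at and _s_at probe sets, since HLA-B and HLA-C have no other kind. The count of members at least 2-fold higher was 0 in each of the 11 alternatives, and the median ran from -0.59 to -0.15. Of all genes, 808 lay 2-fold or more lower and 973 higher. With the mean over probe sets these were 503 and 588, at 1.5-fold 1460 and 1958, and at 3-fold 461 and 471. Centring on housekeeping genes moved the median of all genes by -0.19 and gave 1055 lower and 733 higher. No paired analysis was possible because each line has 1 array. Differences that rest on a level under log2 6, such as those of ERAP2, IRF1 and NLRC5, are limited by signal over background.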
